A study of Gallus gallus with 7 samples.

Results

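Sox10 pull-downs of chicken neural crest chromatin at Hamburger and Hamilton stage 18 (HH18) were compared with input chromatin over 13888 genomic regions. These are the regions of the deposited table that lie on the 34 placed chromosomes, out of 25469 regions in all, and the groups compared hold 4 of the 7 libraries of the series. Each region was placed relative to the nearest transcription start site (TSS), taken as the start of plus-strand genes and the end of minus-strand genes. All but 8 of these regions span 500 bp between start and end.

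Cells came from wild-type embryos and were sorted by fluorescence. For the sox10 pull-down (2 libraries), the tfap2B pull-down (2 libraries) and input (2 libraries), embryos received the E2:citrine reporter at HH8, and E2+ cells of the vagal neural crest were collected at HH18. The factor was carried in by electroporation with an Avi tag, together with the BirA enzyme that biotinylates the tag, and was captured on streptavidin beads without an antibody. The chromatin therefore belongs to an introduced tagged protein, and the series has no pull-down without a tagged factor, so tfap2B is the only other pull-down the sox10 libraries can be set against. A further group, HH10 RNA (1 library), came from NC2+ cells electroporated with NC2:citrine at HH4. Whether the replicates of a group are separate embryos is not stated. The p-values therefore measure only how far these libraries spread, and that spread may be technical.

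Sox10 is an HMG-box transcription factor of the SoxE family that bends DNA at its sites. It is expressed in migrating neural crest, where it helps to keep cells multipotent, and later acts in glia, melanocytes and the precursors of enteric neurons. In rodent Schwann cells it is known to work through elements in introns and at a distance from promoters, such as those of myelin genes. Tfap2B is an AP-2 family factor that also acts in neural crest. The deposited gene table pairs no Ensembl ID with a gene symbol, so known sox10 targets and markers of the sorted cells were not looked up by name, and regions are given by position in galGal5.

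Depth within the regions was 2533921 and 1366132 reads for sox10, 3498728 and 1405830 for tfap2B, against 7989029 and 13921317 in the inputs. Values are scaled reads, that is reads times 1 constant per library, and each listed value is at least 1 read. For the median placed region these were 124 and 122 with sox10, 141 and 121 with tfap2B, and 106 and 206 in the inputs. The sox10 libraries were the most alike: 93.2% of the tested placed regions had values within 2-fold of each other, against 77.2% for tfap2B and 48.8% for input. The inputs also held 954 and 1018 placed regions at 1 read, against 0 and 9 in the sox10 libraries. The low end of the input therefore enters many of the differences that follow, and input reads are given beside them. The libraries are bulk, so strong signal in few cells and weak signal in many cannot be told apart.

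Sox10 signal stood above input mainly in introns and between genes, far from promoters. Of 13885 placed regions that passed the low-read filter, 1973 (14.2%) were higher in sox10 than in input and 2195 (15.8%) were lower (limma on log2(scaled reads + 1), Benjamini-Hochberg adjusted p under 0.05). In the higher regions the medians were 205 and 255 scaled reads for sox10, 69.8 and 85.4 with tfap2B, against 6.25 and 0.726 in the inputs. The sox10 medians were thus above those of all placed regions and the input medians far below them. In the lower regions the medians were 108 and 95.9 in sox10, 133 and 121 in tfap2B, against 404 and 392 in input. There the sox10 libraries stood slightly below their usual level and the inputs well above theirs. The median log2 difference, sox10 minus input, was 5.56 over the higher regions (1.36 to 9.70) and -1.97 over the lower ones (-4.46 to -1.13). Leaving out 1 sox10 library moved both counts by over 1.5 times. Leaving out input replicate 1 moved only the lower count by as much, and input replicate 2 only the higher count. Leaving out a tfap2B library moved neither count by as much. There were 796 higher and 209 lower regions without sox10 replicate 1, 437 and 21 without sox10 replicate 2, 4910 lower when input replicate 1 was left out, and 3836 higher when input replicate 2 was. With 1 sox10 or input library left out, the lone library of its group is assumed to vary like the other groups. The fit also holds the 2 tfap2B libraries, which share in the estimate of the spread; with only sox10 and input libraries it called 1553 regions higher and 1881 lower. The edgeR quasi-likelihood test called fewer regions, 1451 (10.5%) higher and 814 (5.86%) lower, among them 1439 of the 1973.

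**Figure D1:**
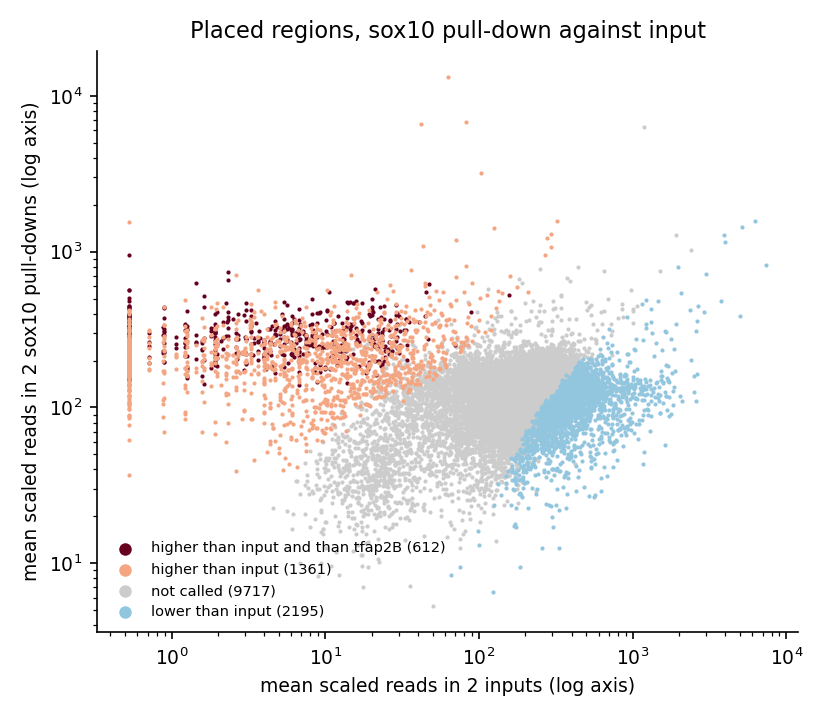
Each point is 1 tested placed region, with the mean of the 2 sox10 libraries on the vertical axis and the mean of the 2 inputs on the horizontal axis, both in scaled reads on log axes. Regions higher than input sit at low input and at sox10 levels mostly from 100 to 500, and regions lower than input sit at input levels mostly above 200.

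The share of regions above input was larger farther from the starts of genes. It was 2.34% of the 6787 promoter regions, whose centre lies within 1 kb of a TSS, and 10.1% of 985 exonic, 23.2% of 4314 intergenic and 39.6% of 1799 intronic regions. By distance it was 13.8% from 1 to 5 kb, 25.1% from 5 to 20 kb, 34.6% from 20 to 50 kb, 35.7% from 50 to 100 kb and 36.9% beyond 100 kb. The regions below input ran the other way beyond the 1 to 5 kb class: 16.0% of promoters, 24.4% from 1 to 5 kb, 16.7% from 5 to 20 kb and 4.81% beyond 100 kb. Among the 1973 higher regions, 50.8% were intergenic, 36.1% intronic, 8.06% promoters and 5.02% exonic, with a median TSS distance of 18.2 kb (quartiles 5.74 and 46.5). Of the 2195 lower regions 49.4% were promoters, close to the 48.9% of all tested regions. Position upstream or downstream of the TSS hardly separated them, since 45.0% of the higher regions and 45.9% of all tested regions lay upstream. The 8.06% moved with single libraries: it was 33.9% without input replicate 2, 2.29% without sox10 replicate 2, 3.02% without sox10 replicate 1, 5.17% without tfap2B replicate 1 and 7.74% without input replicate 1. With the sox10 and input libraries alone it was 4.89%.

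**Figure D2:**
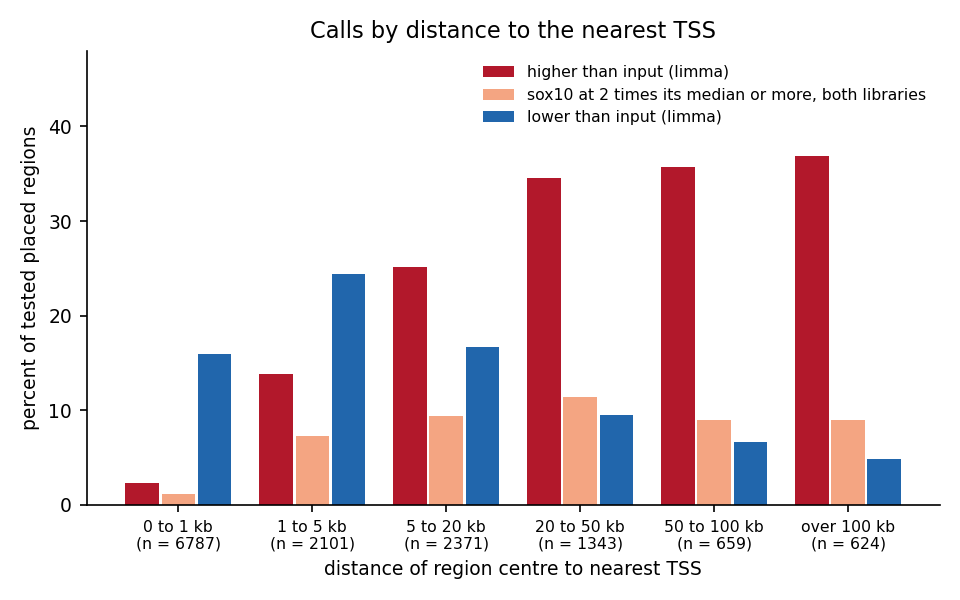
Bars give the percent of tested placed regions in each class of distance from the region centre to the nearest TSS, with the number of regions under each class. Regions higher than input go from 2.34% within 1 kb to 36.9% beyond 100 kb, and regions with sox10 at 2 times its median or more go from 1.13% within 1 kb to 11.4% from 20 to 50 kb.

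The sox10 medians themselves differed little between these classes, while those of the inputs differed widely. Intronic regions had medians of 129 and 133 scaled reads in sox10 and 42.4 and 54.8 in input. Intergenic regions had 118 and 119 in sox10 and 61.8 and 114 in input. Promoters had 126 and 124 in sox10 and 137 and 257 in input, and exonic regions 115 and 115 in sox10 and 180 and 267 in input. Intronic regions thus had the lowest input and intergenic regions the next lowest, in both replicates. How far low input reads account for the calls was not tested.

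Regions were therefore also sorted by their reads in the weaker input. Of the 1559 regions with 1 read there, 81.3% were higher in sox10, and the sox10 medians were 190 and 239 against tfap2B medians of 65.3 and 83.3. The share was 57.2% of 505 regions with 2 to 9 reads, 11.3% of 3449 with 10 to 99, 0.549% of 4736 with 100 to under 300, and 0% of 3636 with 300 or more. Among the regions with 1 read, and among those with 2 to 9, 0 were called lower. Where both inputs held 1 read, all 413 regions were higher. Those regions could pass the low-read filter only through pull-down reads. The filter removed only 3 placed regions, though, and without it 1977 were higher, against 1973. Both inputs are at their floor in these 413 regions, so this share says little about sox10 itself. Among the regions kept, sox10 signal was high where input was lowest: its medians fell to 117 and 115 at 10 to 99 reads and stayed near that level above. How far the selection of regions sets this pattern was not tested. At 1 read in the weaker input the sox10 medians were 198 and 250 outside promoters and 143 and 157 in promoters. Only the weaker input was matched there. The input medians were 0.695 and 0.363 outside promoters, against 0.695 and 102 in promoters. Tfap2B showed no rise at low input outside promoters, with 58.2 and 77.1 at 1 read and 124 and 119 at 300 or more. Among regions with more input the shares by position were also unequal. With 10 or more reads in both inputs, 338 of 5346 regions outside promoters (6.32%) were higher in sox10, against 79 of 6475 promoters (1.22%). Input still differed there, with medians of 116 and 193 outside promoters and 144 and 264 in promoters. The sox10 medians were 107 and 101 outside promoters and 125 and 122 in promoters. Whether position matters apart from input was not tested.

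**Figure D3:**
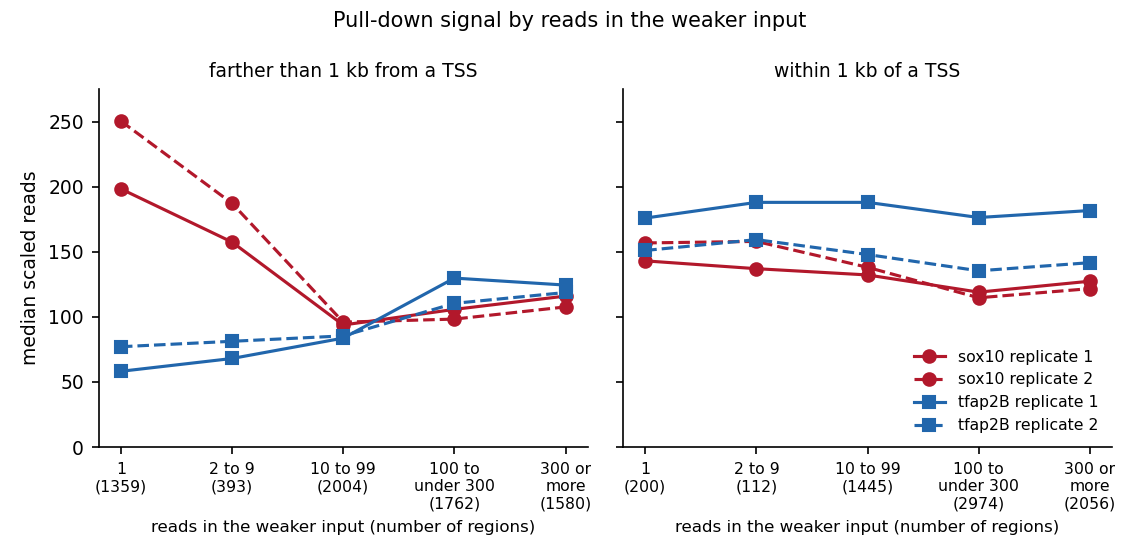
Median scaled reads of each sox10 and tfap2B library are plotted against the number of reads in the weaker input, for regions farther than 1 kb from a TSS (left) and within 1 kb (right), with the number of regions in brackets. Outside promoters the sox10 lines start at 198 and 250 and come down to about the tfap2B level at 10 reads, and in promoters all lines are flatter.

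Strong sox10 signal, judged without the input, also lay mostly outside promoters. Both sox10 libraries reached at least 2 times their own placed median in 722 regions (5.20% of those tested), a level chosen after the values were seen. They made up 11.8% of intronic, 8.99% of intergenic, 4.47% of exonic and 1.13% of promoter regions. Promoters were 10.7% of the 722, against 48.9% of all tested regions. This share was 10.6% at 3 times the median (170 regions) and 23.4% at 1.5 times (1737 regions). Of the 722 regions, 567 (78.5%) were also higher than input and 31 were lower than input.

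Those 722 regions were also split by their tfap2B signal. In 128 of them both tfap2B libraries also reached 2 times their median, and there 26.6% were promoters, 55 were higher and 21 lower than input, and 0 were higher than tfap2B. In the other 594, 7.24% were promoters and 512 (86.2%) were higher than input. Their medians were 297 and 354 scaled reads in sox10, 97.5 and 106 with tfap2B, against 10.4 and 2.54 in input. The tfap2B values of both sets, and the calls against tfap2B, largely follow from the split itself. The 31 strong regions below input had medians of 399 and 402 in sox10, 356 and 344 with tfap2B, against 1833 and 1598 in input. They were high in every library. An intergenic example at chromosome 1, 188381838 to 188382338, had 1565 and 1582 scaled reads in sox10, 1485 and 1341 with tfap2B, against 8579 and 3843 in input.

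In 612 regions sox10 was higher than both input and tfap2B. The second comparison used the 4 pull-down libraries without inputs, where 621 (4.47%) of the tested placed regions were higher in sox10 and 13 (0.0936%) were lower. The 612 had medians of 242 and 298 scaled reads in sox10, 40.3 and 54.1 with tfap2B, against 3.47 and 0.363 in input. In 486 of them (79.4%) the weaker input was at 1 read, against 64.2% of all 1973 regions above input. The sox10 libraries thus stood at about 2 times their placed median while tfap2B stood under its own. By position 319 were intergenic (52.1%), 246 intronic (40.2%), 30 exonic (4.90%) and 17 promoters (2.78%). These 612 regions lay a median of 22.2 kb from the nearest TSS. The median log2 difference, sox10 minus tfap2B, was 2.52. The count was 0 without sox10 replicate 1 and 0 without sox10 replicate 2, 1075 without tfap2B replicate 1, 1187 without tfap2B replicate 2, and 0 with all 6 libraries in 1 fit. At an unadjusted limma p under 0.05, 1334 of the 1973 regions above input were above tfap2B in the fit without inputs. With all 6 libraries in 1 fit, 578 of the 1973 were at that unadjusted level. At an adjusted p under 0.05 in both comparisons, edgeR with every library gave 431. EdgeR called 482 of the 612 above input.

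**Figure D4:**
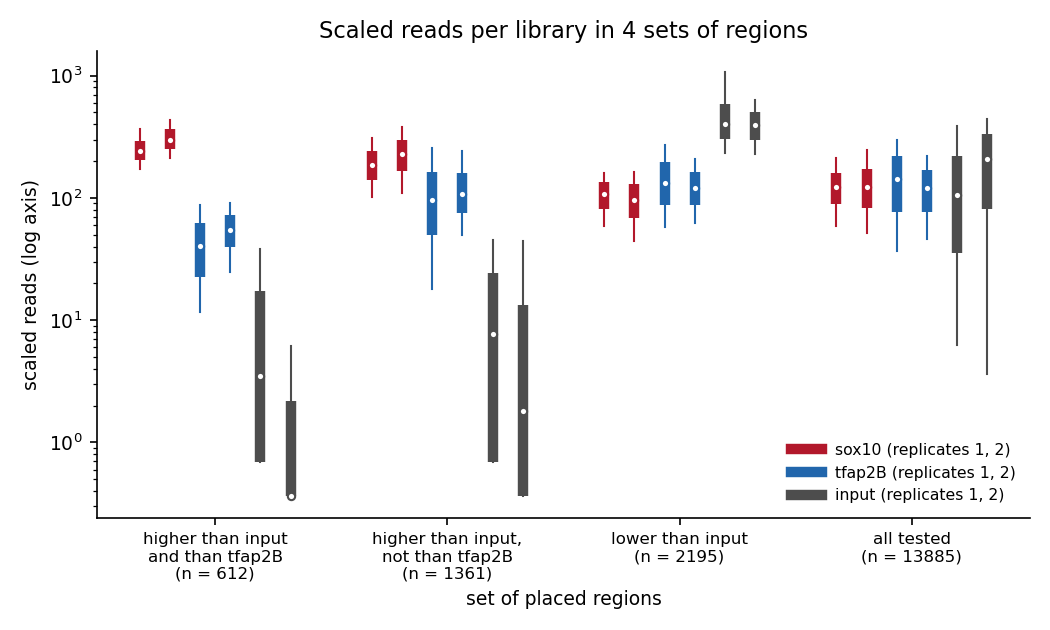
Thick bars span the quartiles, thin lines the 10th to 90th percentile and white points the median of scaled reads (log axis) for each of the 6 libraries in 4 sets of placed regions. In the 612 regions above input and tfap2B the sox10 medians are 242 and 298 and the tfap2B medians 40.3 and 54.1, and in the lower regions the pull-down medians run from 95.9 to 133 while those of the inputs are 404 and 392.

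Single regions show the range of this signal. The highest mean sox10 values of the placed regions lay in exons of ENSGALG00000012290 (chromosome 1, 51089596 to 51098755, plus strand). The region at 51096274 to 51096774, 6.93 kb downstream of the TSS, had 4911 and 21446 scaled reads in sox10, 6041 and 1025 with tfap2B, against 91.7 and 33.7 in input. Every pull-down stood above both inputs, and the replicates of each factor differed by over 4-fold. The embryos received DNA that carries a tagged factor, and the counts cannot tell reads of such DNA from reads of the exons of that factor's own gene. The files do not say which gene ID belongs to either factor, so whether these exonic values are chromatin signal was not tested. Its log2 difference from input was 7.50 ± 0.98 (SE, limma adjusted p = 0.00291) and that from tfap2B, 2.04 ± 0.90 (SE), did not pass the test (limma adjusted p = 0.358). The other exonic region, at 51090792, had 2413 and 11125 in sox10, 3666 and 691 in tfap2B, against 163 and 0.363 in input.

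The same gene had 2 intergenic regions upstream of its TSS with a different profile. At 51086640 to 51087140, 2.71 kb upstream, sox10 had 388 and 555 scaled reads, tfap2B 72.5 and 81.2, and input 1.39 and 4.72. Here the sox10 libraries were close to each other and separate from all other libraries, and the region passed the test against input (log2 difference 6.97 ± 0.80, SE) and against tfap2B (2.58 ± 0.36, SE). At 51083893, 5.45 kb upstream, sox10 had 288 and 405, tfap2B 156 and 167, and input 61.8 and 0.363. All 4 regions nearest to this gene were higher than input, and its level in the HH10 RNA library was 485 TPM (counts per gene length on a common total), against a median of 5.85 TPM over all genes next to a tested region outside promoters.

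Regions with at least 10 reads in each input give differences that do not rest on empty input. Over the 417 higher regions of this kind the median log2 difference was 3.14 and 18.9% were promoters. After the region at 51096274, the 11 with the largest differences that met the naming rule (largest log2 difference, mean at or above the placed median, groups apart, TSS within 100 kb, 1 per gene) had log2 differences from 5.51 to 4.94. Of these 11 regions 6 were intronic, 2 intergenic, 2 promoters and 1 exonic.

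An intron at chromosome 10, 2474618 to 2475118, 6.10 kb from the nearest TSS, had 305 and 386 scaled reads in sox10, 63.5 and 77.1 with tfap2B, against 9.03 and 4.72 in input, which is 13 reads in each input. Sox10 and input did not overlap, which the naming rule requires. Sox10 was higher than input (log2 difference 5.51 ± 0.74, SE) and than tfap2B (2.28 ± 0.37, SE). An intergenic region at chromosome 4, 45156367 to 45156867, 13.4 kb from a TSS, had 292 and 339 in sox10, 27.7 and 52.1 in tfap2B, against 8.34 and 8.35 in input. It was the most sox10-led of the 12 named regions, with log2 differences of 5.08 ± 0.77 (SE) from input and 3.02 ± 0.44 (SE) from tfap2B. An exonic region at chromosome 21, 6594615 to 6595115, had 377 and 578 in sox10, 83.2 and 93.7 in tfap2B, against 11.8 and 17.1 in input. The intron at chromosome 24, 196149 to 196649, had 280 and 398 in sox10, 88.6 and 93.7 in tfap2B, against 9.03 and 6.89 in input. Both passed the test against tfap2B as well, with log2 differences of 2.39 and 1.86, and so did the intergenic region at chromosome 2, 17341089 (2.38).

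At 2 named promoters the tfap2B values overlapped those of sox10. The promoter at chromosome 2, 49766513 to 49767013, 155 bp downstream of a TSS, had 2096 and 4282 scaled reads in sox10, 2591 and 4171 with tfap2B, against 173 and 32.3 in input. The promoter at chromosome Z, 34407377 to 34407877, had 443 and 393 in sox10, 336 and 431 in tfap2B, against 20.8 and 6.89 in input. At both, the pull-downs of the 2 factors overlapped and stood apart from input, with log2 differences from input of 5.30 ± 0.77 and 4.99 ± 0.62 (SE). The intron at chromosome 14, 4209488 to 4209988, had 488 and 409 in sox10, 372 and 254 in tfap2B, against 8.34 and 14.5 in input, and its difference from tfap2B (0.54 ± 0.34, SE) did not pass the test. Introns at chromosome 26, 617319, chromosome 24, 2267322, and chromosome 13, 8534179, had 281 to 428 scaled reads in sox10, 98.4 to 173 in tfap2B, against 4.35 to 11.8 in input. There tfap2B lay between sox10 and input, and none of the 3 passed the test against tfap2B. In total 5 of the 12 named regions were higher than tfap2B. Among all 417 higher regions with 10 or more reads in each input, 48 were. Without sox10 replicate 2 the call was lost for 8 of the 12 and without sox10 replicate 1 for 2.

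**Figure D5:**
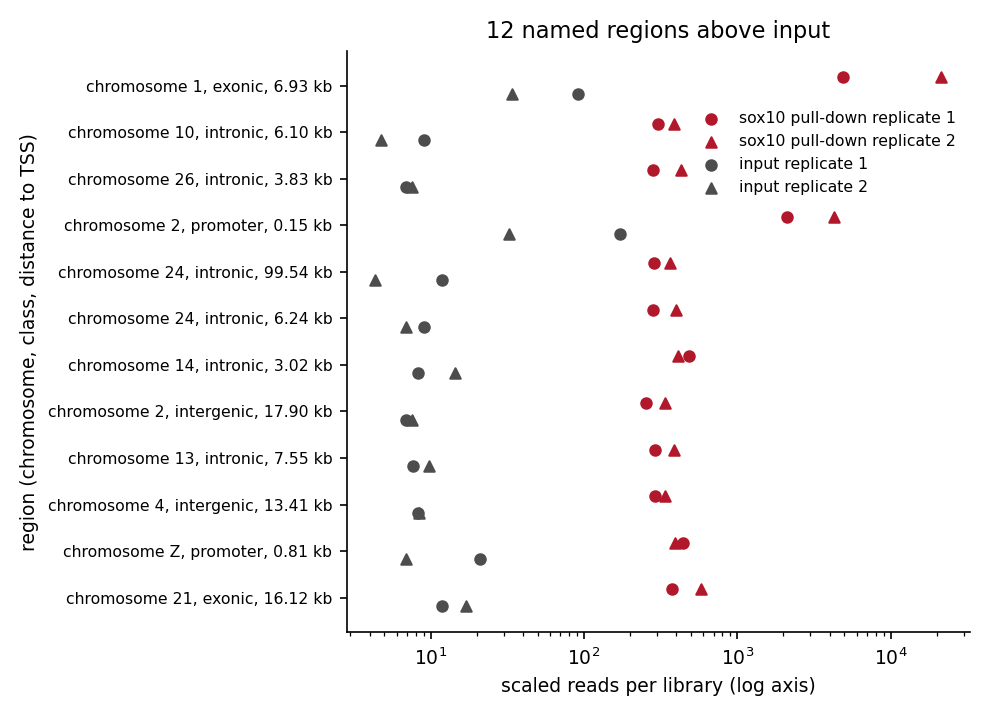
Scaled reads (log axis) of the sox10 and input libraries in the 12 named regions that had at least 10 reads in each input, labelled by chromosome, class and distance to the nearest TSS. In every region both sox10 libraries lie to the right of both inputs, which the naming rule requires. The exonic region of chromosome 1 and the promoter of chromosome 2 lie farthest to the right.

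Promoters above input were few, and the 6 with the largest differences had almost no input reads. At chromosome 3, 107926123 to 107926623, 127 bp upstream of a TSS, sox10 had 373 and 524 scaled reads, tfap2B 103 and 91.6, and each input 1 read. The pooled ratio of sox10 to input was 889, with an exact 95% counting interval of 245 to 7362, and the log2 difference of 8.19 became 5.42 with a pseudocount of 10. At chromosome 5, 58128420 to 58128920, sox10 had 604 and 650, tfap2B 102 and 152, and input 0.695 and 2.18, a pooled ratio of 372 (179 to 927). The promoters at chromosome 26, 518499 (258 and 384 in sox10, 29.5 and 87.5 in tfap2B) and chromosome 8, 7518059 (264 and 339 in sox10, 34.0 and 91.6 in tfap2B) also had 1 read in each input. Of the 6, 5 were higher in sox10 than in tfap2B too; the exception was chromosome 27, 2474618, with 296 and 388 in sox10 and 133 and 154 in tfap2B. Among all 159 promoters above input only 17 were also above tfap2B.

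The 10 placed regions with the largest difference between the factors, among the 612, were intronic, intergenic or exonic and very low in tfap2B replicate 1. At chromosome 13, 11035341 to 11035841, 199.9 kb from the nearest TSS, sox10 had 231 and 337 scaled reads, tfap2B 0.895 and 16.7, and input 4.17 and 1.81. At chromosome 2, 39780093 to 39780593, 165 kb from a TSS, sox10 had 388 and 344, tfap2B 0.895 and 37.5, and input 13.2 and 0.363. In the intron at chromosome 8, 8645726 to 8646226, sox10 had 184 and 299, tfap2B 2.68 and 20.8, and input 43.8 and 0.363. In each of these 3 both sox10 libraries exceeded every other library. Their log2 differences from tfap2B were 5.60, 5.42 and 4.72, and a value of 0.895 is 1 read.

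Regions above input lay near 1531 genes within 100 kb, of 10093 genes nearest to any tested region, and mostly as single regions. A single higher region was nearest for 1358 genes, and 173 genes had 2 or more and 27 had 3 or more. Higher regions also lay near each other: 208 (10.5%) had another within 10 kb, against 4.66% of the regions that were not higher, and the shares at 20 kb were 16.4% and 9.13%. The sets were not matched for position or input: 8.06% of the higher regions and 48.9% of all tested regions were promoters. Whether higher regions group apart from this was not tested. At 20 kb there were 113 runs of 2 and 26 runs of 3 or more, the longest of 7.

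Among the 10 genes nearest to the most higher regions, groups of regions led by sox10 and groups shared with tfap2B could be seen. ENSGALG00000037717 (chromosome 18, 8934258 to 8973228, minus strand) had 4 of 4 regions above input, 1 in its own intron and 3 upstream of its TSS within introns of another gene, with log2 differences from 6.33 to 7.49. Its region at 8993051 to 8993551, 20.1 kb upstream, had 193 and 218 scaled reads in sox10, 16.1 and 14.6 with tfap2B, and 1 read in each input. The region at 8989269 had 431 and 445 in sox10, 76.1 and 95.8 in tfap2B, against 0.695 and 2.54 in input. Of the 4 regions, 3 were also higher than tfap2B, and the gene had 69.8 TPM in the HH10 RNA library. A cluster on chromosome 1 from 65845420 to 65889109, between genes, likewise had 4 of 4 regions above input and 3 of them above tfap2B. Its strongest region, at 65853882, had 369 and 466 in sox10, 27.7 and 83.3 in tfap2B, against 0.695 and 1.81 in input. The gene nearest to this cluster had 0 counts in the HH10 RNA library. Over the 10 genes the HH10 levels ran from 0 to 485 TPM.

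The gene with the most higher regions, 6 of 7, lies near the start of chromosome 11, with regions from 1956 to 55600 that had 108 to 611 scaled reads in sox10, 26.0 to 631 in tfap2B and 4.35 to 255 in input. None of the 6 was higher than tfap2B, and the ranges of the 2 factors overlapped. Their edgeR adjusted p against input ran from 0.0104 to 0.191, and most were not called by edgeR. A second cluster of this kind, on chromosome 1 from 177234154 to 177256053, had 5 of 5 regions above input and 0 above tfap2B. It had 215 to 620 in sox10, 156 to 616 in tfap2B and 1.45 to 91.0 in input. There the edgeR adjusted p against input ran from 0.0117 to 0.137, so edgeR did not call them all. The cluster on chromosome 22 had 3 of 5 regions above input. Its regions at 1704 and 9174 were called lower than input, with log2 differences of -2.25 and -1.80. The region at 6383 to 6883 had 1274 and 1577 in sox10, 1086 and 1256 in tfap2B, against 197 and 53.7 in input. Its log2 difference was 3.77 ± 0.60 (SE) from input and 0.28 ± 0.35 (SE) from tfap2B. The genes nearest to these clusters on chromosomes 11, 1 and 22 each had 0 counts in the HH10 RNA library. Among the other genes of the 10 with no region called above tfap2B, levels were 239 TPM (ENSGALG00000041577), 20.2 (ENSGALG00000013272), 1.01 (ENSGALG00000042812) and 0 (ENSGALG00000009573). In that order, their higher regions had 133 to 435, 173 to 842, 115 to 576 and 147 to 381 scaled reads in sox10. With tfap2B these regions had 6.26 to 144, 94.9 to 723, 81.2 to 469 and 109 to 273. Over all genes next to tested regions outside promoters, 28.2% had 0 counts.

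Regions with 100 or more reads in both inputs were rarely higher in sox10. Of the 3636 with 300 or more in the weaker input, 0 were. Of the 4736 with 100 to under 300, 26 (0.549%) were, against 14.2% of all tested regions. The largest of the 26 by sox10 signal, at chromosome 1, 155330862 to 155331362, had 1174 and 1958 scaled reads in sox10. With tfap2B it had 557 and 960, against 547 and 92.5 in input. Of the 26, 2 were also higher than tfap2B. The intron at chromosome 17, 1303769 to 1304269, had 416 and 398 in sox10, 76.1 and 131 in tfap2B, against 93.8 and 82.4 in input. The intergenic region at chromosome 15, 10852635 to 10853135, had 490 and 562 in sox10, 89.5 and 187 in tfap2B, against 98.0 and 217 in input. In both, tfap2B was near the input level while sox10 stood apart from all of them.

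Regions below input mostly had strong input and some sox10 signal. The largest difference was at chromosome 20, 5638279 to 5638779, an intergenic region 1.64 kb from a TSS, with 73.3 and 42.1 scaled reads in sox10, 105 and 75.0 with tfap2B, against 2677 and 580 in input (log2 difference -4.46 ± 0.73, SE). An intron at chromosome 2, 336347 to 336847, had 99.7 and 119 in sox10, 118 and 146 in tfap2B, against 4224 and 946 in input. There sox10 was near its placed median and the input was far over its own. The lowest mean of the sox10 libraries among the 8 named regions was at chromosome 12, 1126985 to 1127485, an exonic region with 13.2 and 11.7 in sox10, 43.0 and 35.4 in tfap2B, against 513 and 150 in input. None of these 8 regions passed the test between the factors. Of all 2195 lower regions, 0 were higher in sox10 than in tfap2B and 1 was lower. With the scaling changed to total reads, DESeq2 size factors or TMM factors, 525 (23.9%) of the 2195 lower regions were called under all 3, against 1931 (97.9%) of the 1973 higher regions. Of the called regions 47.3% were higher with the deposited scaling, and 81.9%, 73.2% and 60.6% under these alternatives, with median log2 differences of placed regions of 0.36, 0.08 and -0.15, against -0.40 as deposited.

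The share above input also differed between chromosomes. Outside promoters it was 29.6% of 3192 regions on chromosomes 1 to 5, 30.6% of 954 on chromosomes 6 to 10, 21.1% of 2215 on the smaller chromosomes and 14.9% of 737 on Z and W. The sox10 medians on Z and W were 90.1 and 79.6 scaled reads, against 121 and 126 on chromosomes 1 to 5, 133 and 136 on chromosomes 6 to 10, and 121 and 119 on the smaller chromosomes. The input medians were 70.9 and 129 on Z and W, 49.7 and 58.2 on chromosomes 1 to 5, 67.7 and 148 on chromosomes 6 to 10, and 111 and 195 on the smaller chromosomes. Z and W thus had the lowest sox10 medians of the 4 groups, with input close to that of chromosomes 6 to 10. The sex of the embryos is not stated in the labels.

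Genes near the higher regions outside promoters had RNA levels close to those of all genes near tested regions there. The RNA is from HH10 vagal crest, an earlier stage than the chromatin. Part of both sets was silent, with 0 counts for 29.6% and 28.2% of the genes. For higher regions outside promoters the 1392 nearest genes had a median of 6.75 TPM and 45.4% had 10 TPM or more, against 5.85 TPM and 43.8% over all 4757 genes next to tested regions there. For the 612 regions above input and tfap2B, outside promoters, it was 7.03 TPM over 479 genes, and for lower regions 2.49 TPM over 879 genes. At promoters the 159 genes with a higher region had a median of 13.5 TPM, the 1080 with a lower region 24.6 TPM, and all 6702 had 31.2 TPM. With 1 RNA library there is no replicate behind these levels, and they are given as a description.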

How the data were processed

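Sox10 and tfap2B biotin pull-downs and inputs (2 libraries each, HH18) and 1 HH10 RNA library were analysed, grouped by title. Libraries were sequenced as paired-end reads per the labels' protocols. The submitters' processing notes name galGal5 and, without roles, Bowtie, DiffBind, DESeq2, featureCounts, Subread 1.4.5 and STAR 2.4.2a. How regions were called and how the constants below were set was not stated in these sources. The chromatin table deposited by the authors holds a signal, that is, whole reads times 1 constant per library. Within 0.01 read, 100.0% of values were whole multiples of 1 read, which is worth 1.20 and 2.34 in sox10, 0.895 and 2.08 in tfap2B, against 0.695 and 0.363 in input. A listed 1 read can stand for 0 or 1. Whether starts count from 0 or 1 is not stated. The deposited gene table holds counts, not normalized, per the file headers; its HH10 column occurs 2 times, and 21 further columns, of other samples, stayed unused. TPM was computed from these counts and the table's gene lengths.

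Log2(scaled reads + 1) was tested in limma 3.58.1 with an intensity trend, all 6 libraries in 1 fit, no covariate and 3 residual degrees of freedom, with Benjamini-Hochberg adjustment over the 25281 regions that passed filterByExpr of edgeR 4.0.16 (188 removed). Log2 differences on this scale understate the change of low regions. The sox10 minus tfap2B contrast used the 4 pull-downs. As an alternative, edgeR's quasi-likelihood test was run on the recovered reads; it called 1451 (10.5%) placed regions higher and 814 (5.86%) lower, and 1439 of the 1973 higher regions. Intervals cover counting error only, and reads have no molecular identifiers.

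Named regions were (a) the 12 higher regions with the largest log2 difference among those with 10 or more reads in each input, a mean at or above the placed median, no overlap between sox10 and input, a TSS within 100 kb and 1 region per gene (148 met this); (b) the 10 genes nearest to the most higher regions; (c) the 6 higher promoters with the largest difference; and (d) the 8 lower regions with the largest negative difference. Other regions in the text were chosen after their values were seen: the strongest below input, those led by sox10 over tfap2B, and those with 100 or more reads in both inputs. Regions, members and lists were chosen with earlier results of these data known. Of 24881 gene IDs, 0 matched the symbol table (GRCg7b), so the planned gene and marker lists could not be used.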

Additional observations from a re-analysis of the deposited data

Results flagged for a closer look

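Sox10 and tfap2B were compared directly, with the inputs left out, and their signal was not equal everywhere. The test of sox10 minus tfap2B in the 4 pull-down libraries called 621 placed regions higher in sox10 and 13 lower. These are 4.47% and 0.0936% of the 13885 tested. Of the 621, 612 were also higher in sox10 than in input, a count that was 0 with all 6 libraries in 1 fit. Tfap2B was not tested against input.

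Unplaced sequences, which the report leaves out, also carried sox10 signal above input. There 2687 of 11396 tested regions (23.6%), on 2009 sequences, were higher in sox10 than in input. Their medians were 139 and 150 scaled reads in sox10, 70.7 and 127 with tfap2B, against 21.5 and 4.72 in input, and 1434 of them had 10 or more reads in both inputs.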

How the results depend on the processing

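In the full fit, 417 of the 11821 placed regions with 10 or more reads in both inputs were higher in sox10. The number of placed regions higher in sox10 moved most with single libraries and with the reads required of every library, which drops regions. It was 440 with at least 10 reads in every library, 1086 at adjusted p under 0.01, and between 437 and 3836 without each library in turn. The lower regions depended on nearly every choice: 545 with total reads, 831 with DESeq2 size factors, 1367 with TMM factors, 814 with edgeR, 997 with the DESeq2 1.42.0 Wald test, 1030 with 1 variance weight per group, 319 in the test against a log2 difference of 1, 324 at adjusted p under 0.01, and between 21 and 4910 without each library in turn. Regions higher than input and than tfap2B numbered 0 with all 6 libraries in 1 fit, 0 at adjusted p under 0.01 and between 0 and 1187 without each pull-down in turn, against 612; edgeR gave 431. The cause of these changes was not tested. No named region changed direction under any alternative run. These regions were picked for large differences without overlap, so their stability says little about the other called regions. The median log2 difference of placed regions did change direction, from -0.40 to 0.36 with total reads and 0.08 with DESeq2 size factors. With these and TMM factors more regions were called higher than lower. The replicate numbers do not pair libraries in the labels, and deviations of same-numbered sox10 and input libraries correlated at -0.067 over placed regions and those of sox10 and tfap2B at 0.108; with a replicate block the counts were 1804 higher, 1501 lower and 1030 higher than input and tfap2B. The promoter share of higher regions ran from 2.29% to 33.9% over 20 alternatives. For the 26 named regions 489 values under alternatives kept their side of the threshold and 21 lost the call, 14 of them without sox10 replicate 2, 4 without sox10 replicate 1 and 3 at adjusted p under 0.01. The alternatives at 1.5 and 3 times the median were chosen after seeing the data. The sox10 libraries had 103 and 52 reads at the median placed region. Whether depth limits the calls was not tested.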

Other observations

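In all, 437 regions were called higher than input in the full fit and again without each of the 6 libraries. These are the 437 called without sox10 replicate 2, a fit in which the lone sox10 library is assumed to vary like the other groups. Of these, 235 were intergenic, 170 intronic, 22 exonic and 10 promoters (2.29%), and 233 (53.3%) were also higher than tfap2B in the fit without inputs. Their medians were 221 and 276 scaled reads in sox10, 51.0 and 68.7 with tfap2B, against 0.695 and 0.363 in input, so the median region had 1 read in each input. Of the lower regions 18 (0.82%) were called in all these fits.

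The opposite end of the higher set was weak in the pull-down itself. In 135 of the 1973 regions both sox10 libraries lay under their placed median, with medians of 82.9 and 91.2 scaled reads in sox10, 69.8 and 75.0 with tfap2B, against 6.25 and 3.63 in input. In 1688 regions both sox10 libraries lay over it, with medians of 219 and 269 in sox10.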
